A study of Mus musculus with 6 samples.

Results

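Macrophage and monocyte genes were followed in pressure-overloaded mouse hearts with and without the microRNA miR-204. The set holds 34 genes of 24404 in the count table, found by symbol: markers of macrophage identity, of resident and of recruited macrophages, of clearance of dead cells and complement, Fc receptors and 4 pan-leukocyte genes. It was drawn up to leave out the genes of antigen presentation in the major histocompatibility complex (MHC). All 34 were in the table and 33 had enough counts to be tested, the exception being Trem2. RNA of whole hearts was sequenced from 3 wild-type samples (WT-TAC) and 3 miR-204-/- samples (KO-TAC). Both groups had transaortic constriction, an operation that tightens a ligature round the aortic arch so that the heart pumps against a raised load, and both were taken 5 weeks later. The series asks about miR-204 in the hypertrophy that follows such a load. No sham-operated group was analysed here, so each comparison is between genotypes after the operation. The labels do not say more of the groups: how the allele was made, the sex and age of the mice, and how many animals gave each sample are not stated there, so p-values measure only the spread between these samples, which may be technical.

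Macrophages depend on signals through the receptor CSF1R and on the transcription factor PU.1. The heart holds resident macrophages, many seeded before birth and marked by TIMD4, FOLR2 and LYVE1, which keep themselves by local division, and it receives others from blood monocytes, which enter with the help of the chemokine receptor CCR2 after injury or overload. Both kinds engulf dying cells and debris with MERTK, C1q and Fc receptors, and digest them in lysosomes rich in cathepsins.

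The sequence of the deleted microRNA shows what it could pair with. Mature miR-204-5p lies at chr19:22750610-22750631 on the plus strand (RefSeq, GRCm38.p6), and its seed, bases 2 to 8, is in capitals.
mmu-miR-204-5p: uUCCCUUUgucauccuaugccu
The reverse complement of that seed, AAAGGGA, was searched in the longest annotated 3′ UTR of each gene (GENCODE M21, GRCm38). It occurred in 3 of the 34 genes, or 8.82%, against 1992 of 11688 tested genes with a 3′ UTR, or 17%. These 3 genes were Fc receptor genes, and their sites are printed because they are the ones that the seed would match, with the match in capitals and the transcript's strand read 5′ to 3′.
Fcgr1 site (chr3:96284160-96284166, minus strand): gagacctataccAAAGGGAtcttgcaacac
Fcgr2b site (chr1:170959764-170959770, minus strand): taaatgaaaaaaAAAGGGAgaaattctatg
Fcer1g site (chr1:171229608-171229614, minus strand): actaaacaatggAAAGGGAttatcccccaa
A match is a description of letters and does not show that the microRNA binds there. The values of these 3 genes are given with the Fc receptors.

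Promoters are shown for Ccr2 and Trem2, the members whose libraries did not overlap between the genotypes. Each runs from 250 bases before to 50 bases after the start (RefSeq, GRCm38.p6, plus strand for both). Capitals mark GAGGAA, a sequence that PU.1 can bind, or its reverse complement TTCCTC.
Ccr2 promoter (chr9:124101933-124102232): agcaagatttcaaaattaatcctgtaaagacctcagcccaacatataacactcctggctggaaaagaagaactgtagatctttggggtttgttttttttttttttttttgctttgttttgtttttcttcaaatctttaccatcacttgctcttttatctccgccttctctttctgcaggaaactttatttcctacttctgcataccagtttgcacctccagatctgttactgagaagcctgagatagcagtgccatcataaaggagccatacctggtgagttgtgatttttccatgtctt
Trem2 promoter (chr17:48346151-48346450): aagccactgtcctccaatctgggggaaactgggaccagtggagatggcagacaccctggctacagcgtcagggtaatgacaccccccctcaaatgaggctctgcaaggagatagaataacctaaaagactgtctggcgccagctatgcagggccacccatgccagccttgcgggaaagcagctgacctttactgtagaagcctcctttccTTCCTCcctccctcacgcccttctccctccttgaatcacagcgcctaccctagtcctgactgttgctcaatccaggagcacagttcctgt
The Trem2 window held 1 match, on the minus strand, and the Ccr2 window held 0. The table of promoters had 27 of the 34 members. Of these 27, 15 held GAGGAA on either strand, or 55.6%, against 31.3% of all 27025 genes in the table. A gene was counted if any of its promoters there held the motif. The longer form GAGGAAGT, which overlaps GAGGAA, was found in 4 of 27 (14.8%; C1qc, Cd53, Ctss and F13a1) against 3.69% of all. No match in Ccr2 says only that these letters are not in this window. The shorter run GGAA, which ends GAGGAA, does occur in the Ccr2 window.

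The libraries held 6411538 to 8571737 counts, and the members together 3516 to 6111 of them. Levels are given as CPM, the counts scaled to a common library size. Cardiomyocyte markers identified the tissue, with a sum over 6 genes of 68426 to 80727 CPM in WT-TAC libraries and 63105 to 90119 CPM in KO-TAC libraries. Mir204 had 0 counts in each library, wild type included, so its deletion was not checked here. The column used for KO-TAC replicate 3 carries a number that WT-TAC replicate 3 also carries, and these libraries were the closest pair of all, with a median chi-square over genes of 2.999 against up to 7.12 for other pairs and 0.455 for sampling noise. H2-Ea-ps, the pseudogene with the largest difference between the genotypes, had 0, 0 and 1 counts in WT-TAC and 67, 48 and 59 in KO-TAC, so that column sat with the other KO-TAC libraries there.

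No member passed edgeR's quasi-likelihood test between the genotypes: 0 of 33 tested members were called at an adjusted p under 0.05, against 3 of 12487 tested genes (0.024%, of which 0.016% higher and 0.00801% lower). Every tested member had an adjusted p of at least 0.999 in that test. At an unadjusted p under 0.05, 1 member was lower in KO-TAC and 0 were higher, where 1.57% of all tested genes were lower and 1.36% higher. That 1 gene was Ccr2. Fold changes were below 0 on the log2 scale for 20 tested members and above 0 for 13, where 49.8% of all tested genes were below and 50.2% above 0. The median log2 fold change of the 33 was −0.14, beside 0.0012 over all tested genes. In whole-heart RNA, a difference in the number of macrophages and a difference in RNA per macrophage could not be told apart.

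**Figure D1:**
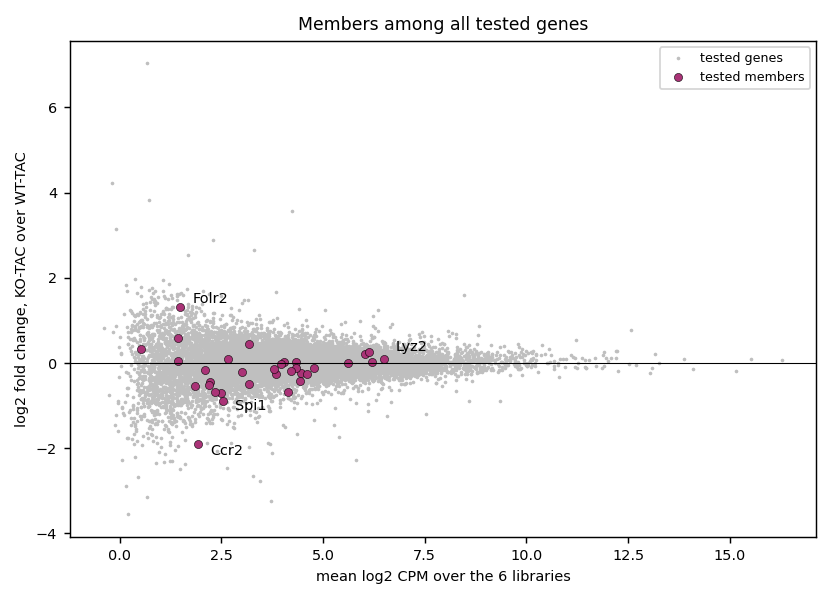
Each point is a tested gene, with its mean log2 CPM over the 6 libraries on the horizontal axis and its log2 fold change, KO-TAC over WT-TAC, on the vertical axis; the 33 tested members are purple. Most members lie near 0, with Ccr2 lowest at −1.91 and Folr2 highest at 1.32.

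The summed level of the members varied more between KO-TAC libraries than between the genotypes. It was 758, 655 and 657 CPM in WT-TAC. In KO-TAC it was 893, 596 and 520 CPM, and the means were 690 ± 58.8 and 669 ± 197 (SD, n = 3). The highest and the lowest sums were both KO-TAC libraries, and the WT-TAC values lay between them. By gene, 18 of the 33 were highest in WT-TAC replicate 1 and 10 in KO-TAC replicate 1, while 15 were lowest in KO-TAC replicate 3. Over all tested genes the last share was 20.3%, against 45.5% of the members. The median deviation from each gene's mean was 0.48, 0.047 and −0.047 (log2) in WT-TAC and 0.33, −0.094 and −0.43 in KO-TAC, and over all tested genes it lay between −0.0066 and 0.029 in each library. Without WT-TAC replicate 1 the members' median fold change was 0.025, and without KO-TAC replicate 3 it was 0.018. Without KO-TAC replicate 1 it was −0.38, with 30 of 34 tested members lower.

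**Figure D2:**
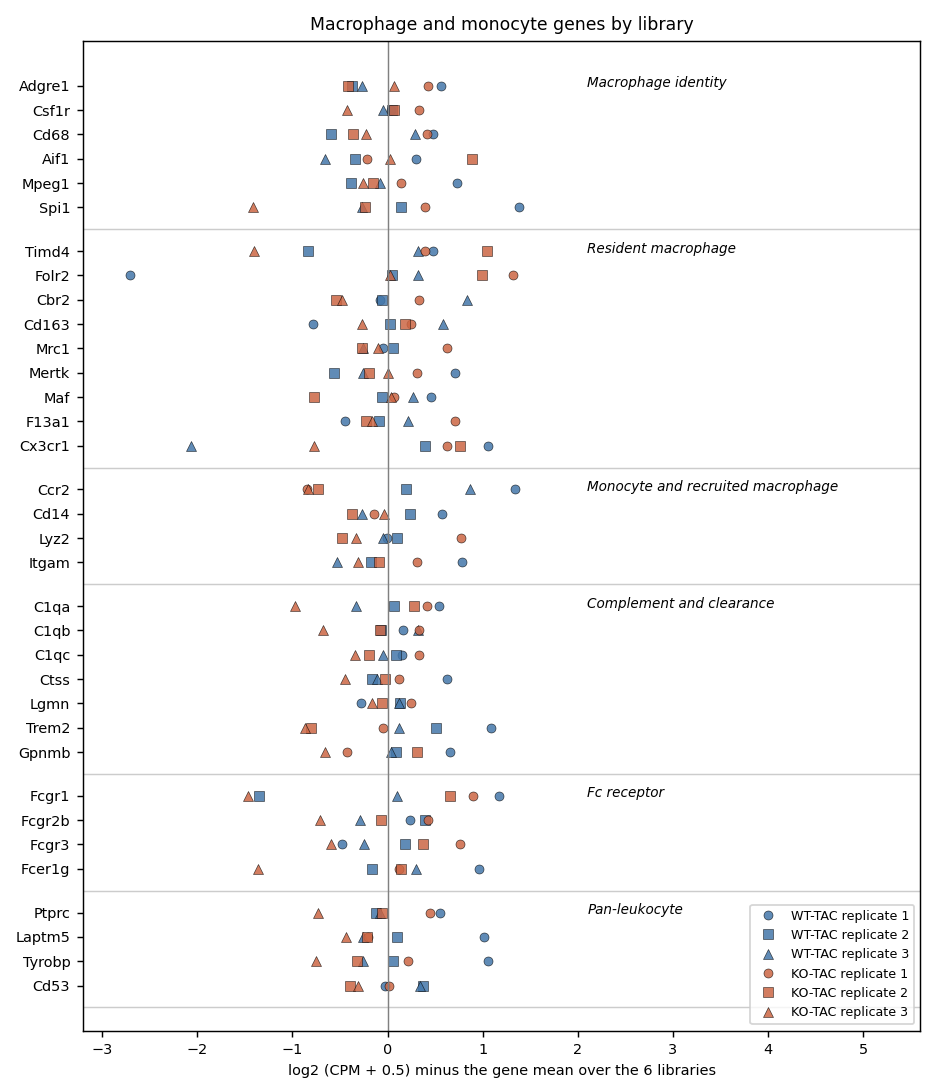
For each of the 34 genes, log2 (CPM + 0.5) minus the gene's mean over the 6 libraries is on the horizontal axis, with blue for WT-TAC, red for KO-TAC and a shape for each replicate. Blue circles (WT-TAC replicate 1) lie farthest right in 18 tested genes and red triangles (KO-TAC replicate 3) lie farthest left in 15. The genotypes separate for Ccr2 and Trem2.

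Macrophage identity genes did not separate the genotypes. Of 6 tested, 3 were higher and 3 lower in KO-TAC, with a median log2 fold change of −0.073. Csf1r, the receptor for the growth factors CSF1 and IL-34 and the most abundant of the 6, stood at 49.5, 50.04 and 46.8 CPM in WT-TAC and 60.9, 50.7 and 35.9 CPM in KO-TAC. The KO-TAC values lay on both sides of the WT-TAC values, which were close together. Its fold change was 1.01, with a 95% interval of 0.73 to 1.39. Csf1r lies on chromosome 18 from 61100598 to 61132149, and 15.1% of its exons overlap Hmgxb3 on the opposite strand.

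Spi1, which encodes PU.1 (chromosome 2 from 91082390 to 91115756), had the smallest p of the 6. It stood at 15.3, 6.2 and 4.52 CPM in WT-TAC and 7.45, 4.62 and 1.77 CPM in KO-TAC. The groups overlapped, with WT-TAC replicate 1 above all others and KO-TAC replicate 3 below them. The log2 fold change of Spi1 was −0.90 ± 0.57 (SE) at an unadjusted p of 0.136 in edgeR's test, and leaving out replicate 1 of WT-TAC or of KO-TAC gave −0.22 or −1.41. Aif1, the actin-binding protein IBA1, stood at 3.15, 1.84 and 1.37 CPM in WT-TAC and 2.05, 4.98 and 2.51 CPM in KO-TAC. These ranges overlapped, and its fold change of 1.51 had an interval of 0.568 to 4.04 (unadjusted p = 0.379). Aif1 lies on chromosome 17 from 35170991 to 35176068, between the class I genes H2-K1 and H2-D1, so by position it is inside the MHC that the set was meant to leave out. Adgre1, the adhesion receptor F4/80, was at 16.5 ± 6.44 and 16.8 ± 4.93 CPM (SD, n = 3, WT-TAC first). Cd68, a lysosomal glycoprotein, was at 4.47 ± 1.73 and 3.996 ± 1.36 CPM, and Mpeg1, the pore-forming perforin-2, at 15.9 ± 6.92 and 13.3 ± 2.07 CPM. The differences of these 3 genes were smaller than the spread between libraries.

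Resident macrophage genes were the class with most members above 0: 6 of 9 were higher and 3 lower, with a median log2 fold change of 0.089. That direction depended on single libraries: the class median was −0.10 when KO-TAC replicate 1 was left out, −0.037 when KO-TAC replicate 2 was, and 0.32 when KO-TAC replicate 3 was. Their sum was 211 ± 12.8 CPM in WT-TAC (SD, n = 3) and 228 ± 70.3 CPM in KO-TAC. F13a1, the A subunit of the clotting transglutaminase factor XIII and the most abundant, stood at 50.5, 65.2 and 80.5 CPM in WT-TAC and 114, 58.9 and 61.9 CPM in KO-TAC. KO-TAC replicate 1 alone lay above the WT-TAC range. The fold change was 1.19, with an interval of 0.803 to 1.77.

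Folr2, a folate receptor of tissue macrophages (chromosome 7 from 101839988 to 101857194), had the smallest p of the class. It had 0, 25 and 26 counts in WT-TAC and 52, 49 and 19 counts in KO-TAC, or 0, 2.87 and 3.56 CPM against 7.6, 5.95 and 2.81 CPM. KO-TAC replicates 1 and 2 lay above every WT-TAC library, and KO-TAC replicate 3 lay among them. The 0 counts of WT-TAC replicate 1 allow up to 3 by counting error alone, and in that library other resident genes were present, Mrc1 at 62.9 CPM among them. Cd163 and F13a1 were also lowest in that library, at 11.3 and 50.5 CPM. Mertk, Maf and Cx3cr1 were highest in it, at 25.6, 29.6 and 13.4 CPM. Lyve1, from the list of further resident genes, was lowest in it too, at 10.4 CPM, and was named after its values were seen. The log2 fold change was 1.32 ± 0.85 (SE), with an unadjusted p of 0.146. It was 0.75 without WT-TAC replicate 1, 1.85 without WT-TAC replicate 3 and 2.24 in limma-voom (unadjusted p = 0.0602), and without the filter on low counts edgeR gave Folr2 an unadjusted p of 0.0487 and did not call it. In all, 63.1% of Folr2 exons overlap the antisense gene Gm10602, so its reads are uncertain in part.

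Maf, a transcription factor that restrains macrophage division, stood at 29.6, 20.4 and 25.9 CPM in WT-TAC and 22.4, 12.3 and 21.9 CPM in KO-TAC. The ranges overlapped, with KO-TAC replicate 2 lowest. Its log2 fold change was −0.43 ± 0.28 (SE) and its unadjusted p 0.155. Maf lies on chromosome 8 from 115682942 to 115707794. Mrc1, the mannose receptor, was at 61.5 ± 6.73 and 71.6 ± 25.1 CPM (SD, n = 3, WT-TAC first), with an interval of the fold change of 0.819 to 1.65. Cd163, the scavenger receptor for haemoglobin bound to haptoglobin, was at 20.5 ± 9.27 and 20.8 ± 3.87 CPM, and Mertk, a receptor for dying cells, at 16.3 ± 8.2 and 16.1 ± 2.94 CPM. Their fold changes were 1.02 and 0.993. Cbr2, a carbonyl reductase, was at 11 ± 4.47 and 7.8 ± 2.99 CPM. Cx3cr1, the fractalkine receptor, ran from 1.1 to 13.4 CPM in WT-TAC and from 3.4 to 10.8 CPM in KO-TAC. Timd4, a phosphatidylserine receptor, ran from 0.459 to 1.89 CPM and from 0.148 to 3.04 CPM. For Cx3cr1 and Timd4 the intervals of the fold change, 0.346 to 3.27 and 0.311 to 5.17, took in a 2-fold change each way.

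Among the genes of monocytes and recruited macrophages, Ccr2 was lower in every KO-TAC library than in any WT-TAC library, and it was the member farthest from 0. It encodes the receptor with which monocytes answer the chemokine CCL2 (chromosome 9 from 124101950 to 124113557). It stood at 9.75, 4.13 and 6.85 CPM in WT-TAC, or 62, 36 and 50 counts. In KO-TAC it stood at 1.75, 1.94 and 1.77 CPM, or 12, 16 and 12 counts. The KO-TAC values were close together and below the lowest WT-TAC value. The means were 6.91 ± 2.81 and 1.82 ± 0.105 CPM (SD, n = 3). The log2 ratio was −1.91 ± 0.53 (SE), or 0.267 of the WT-TAC level with a 95% interval of 0.122 to 0.585. Its unadjusted p was 0.00294 and its adjusted p 0.999 in edgeR's quasi-likelihood test, so it was not called. Ccr2 was the 1 of 33 tested members whose KO-TAC values all lay below the WT-TAC values, against 3.72% of all tested genes, and 0 of 33 lay wholly above, against 4.26%. That is a share near the background. Without WT-TAC replicate 1 the log2 fold change was −1.58, and without WT-TAC replicate 2 it was −2.17. Its unadjusted p was under 0.05 in each of the 16 fits that were run, and its adjusted p was 0.269 in DESeq2, the lowest of them.

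The lower Ccr2 counts were also seen relative to other leukocyte genes. Per count of Ptprc, the common leukocyte antigen CD45, Ccr2 had 0.363, 0.247 and 0.397 counts in WT-TAC and 0.0702, 0.111 and 0.164 in KO-TAC. Per count of Csf1r it had 0.197, 0.0826 and 0.146 in WT-TAC and 0.0288, 0.0384 and 0.0494 in KO-TAC. The genotypes did not overlap in either ratio, which carry no test here, since the gene was picked for its difference. Ccl2, the ligand, had 16, 11 and 8 counts in WT-TAC and 21, 18 and 4 in KO-TAC (log2 fold change 0.27, unadjusted p = 0.733). Its groups overlapped, and it was chosen after its values were seen.

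Markers of other cell types were read beside Ccr2, and 0 of them were called. Of the platelet genes, 4 of 7 were tested and all 4 were lower in KO-TAC, with sums of 37.5 to 133 CPM in WT-TAC and 15.1 to 26.4 CPM in KO-TAC, the highest being WT-TAC replicate 1. Ppbp, a platelet chemokine, had a log2 fold change of −2.46 ± 0.49 (SE, adjusted p = 0.346 in edgeR's test), and Itga2b, an integrin of platelets, −1.98 ± 0.58 (adjusted p = 0.999). T and NK cell genes, 10 in the table and 0 tested, summed to 3.42 to 6.29 CPM in WT-TAC and 0.972 to 2.81 CPM in KO-TAC. Single libraries weighed on these sums: Cd3d had 21 counts in WT-TAC replicate 2 and 0 elsewhere, and Il7r had 22 in WT-TAC replicate 1. The genes of the list differed in direction. Cd3e, a chain of the T cell receptor complex, had 3, 1 and 1 counts and then 0 in each KO-TAC library. Cd3g, another chain, had 4, 1 and 2 counts and then 0, 7 and 4 in KO-TAC. These genes were named after their values were seen. Some T cells also carry CCR2. Neutrophil genes ran from 2.60 to 34.8 CPM and from 7.05 to 18.6 CPM, again highest in WT-TAC replicate 1. In the erythroid list, 4 globin genes had 0 counts everywhere, and Alas2, the first enzyme of haem synthesis in red cells, had a log2 fold change of −0.71 ± 0.30 (unadjusted p = 0.0367). Sums for B cells ran from 1.51 to 7.55 and 5.02 to 7.53 CPM, for mast cells from 10.5 to 19.5 and 9.64 to 12.8 CPM, and for dendritic cells, mostly Zbtb46, from 20.0 to 23.3 and 21.9 to 29.2 CPM. The dendritic sum hides genes that differed in direction. Zbtb46 was higher in KO-TAC without overlap, at 16.9 ± 1.83 and 23.4 ± 3.2 CPM (SD, n = 3), as were 4.26% of all tested genes. Itgax, at 32, 13 and 7 and then 3, 7 and 0 counts, was lower without overlap in CPM. So was Cd209a, at 2, 3 and 3 and then 2, 0 and 0 counts, where the groups met at 2 counts. Neither gene was tested, and 3.56% of all genes with a count were lower without overlap. The other dendritic genes overlapped, and these were named after their values were seen. Endothelial markers had a fold change above 0 in 7 of 7 genes, with Kdr, the VEGF receptor, at a log2 fold change of 0.56 ± 0.20 (unadjusted p = 0.0134). Fibroblast sums ran from 2198 to 2388 and 1795 to 3565 CPM. The part of these cells in the Ccr2 difference was not tested.

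**Figure D3:**
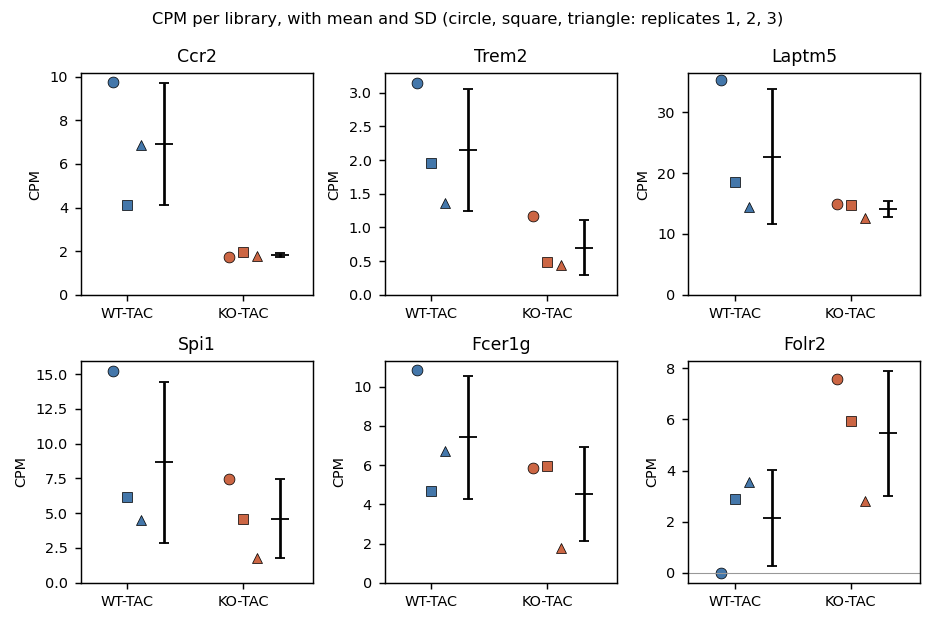
CPM of 6 members by library, with WT-TAC in blue and KO-TAC in red, a shape for each replicate and bars for the mean and SD of 3 libraries. Ccr2 and Trem2 do not overlap between the genotypes, whereas Laptm5, Spi1, Fcer1g and Folr2 do.

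Of the 4 genes in the class of Ccr2, 1 had a fold change above 0 and 3 below, with a median log2 value of −0.29. Lyz2, lysozyme of phagocytes and the most abundant, stood at 89.2, 95.8 and 86.8 CPM in WT-TAC and 153, 64.2 and 71.1 CPM in KO-TAC. KO-TAC replicate 1 was above and the other KO-TAC libraries below the WT-TAC values. Its fold change was 1.06 with an interval of 0.687 to 1.64. Its copy Lyz1 aligns to 96% of the transcript at 90% identity or more, with 95.8% in the best segment, so shared reads are uncertain. Cd14, a receptor for bacterial lipopolysaccharide, stood at 6.76, 5.28 and 3.56 CPM in WT-TAC and 3.95, 3.28 and 4.29 CPM in KO-TAC. The ranges overlapped, and the fold change of 0.739 had an interval of 0.362 to 1.51 (unadjusted p = 0.377). Itgam, the integrin subunit CD11b, was at 15.1 ± 7.76 and 13.6 ± 3.16 CPM (SD, n = 3), and Gm49368 covers 68.7% of its exons on the same strand. In a further list of 18 monocyte and inflammatory macrophage genes, 10 were tested, 7 were higher and 3 lower, and 0 were called. In that list Ly6c2 had 1 count in all, Chil3 had 0, and Ccr1, a chemokine receptor, had 8, 1 and 14 counts in WT-TAC and 19, 19 and 14 in KO-TAC. Other genes of that list went the other way. Spp1, with the smallest p of the list, had 72, 41 and 15 counts in WT-TAC and 15, 28 and 11 in KO-TAC. Its groups overlapped, at a log2 fold change of −1.30 ± 0.64 (SE, unadjusted p = 0.0619 in edgeR's test). Arg1, which was not tested, had 17, 7 and 0 counts in WT-TAC and 1, 0 and 0 in KO-TAC. These genes of the list were named after their values were seen. The highest count of Ccr1 in WT-TAC was equal to the lowest in KO-TAC. Its CPM was higher in KO-TAC without overlap, as in 4.26% of all tested genes. The log2 fold change was 1.13 ± 0.86 (SE, unadjusted p = 0.208 in edgeR's test).

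Complement and clearance genes had a fold change below 0 on the log2 scale in 5 of 6 tested members, from −0.54 for Gpnmb to −0.11 for C1qc, with a median log2 fold change of −0.17. Their sums were 183 ± 9.58 CPM in WT-TAC (SD, n = 3, with Trem2) and 169 ± 39.4 CPM in KO-TAC. Lgmn, the lysosomal protease legumain and the most abundant, stood at 60.7, 80.9 and 80.3 CPM in WT-TAC and 88, 71.1 and 65.8 CPM in KO-TAC. These ranges overlapped, and the interval of its fold change, 0.755 to 1.36, was the narrowest of the members. Gpnmb, a glycoprotein of lipid-laden macrophages, stood at 5.51, 3.56 and 3.42 CPM in WT-TAC and 2.34, 4.25 and 1.92 CPM in KO-TAC. KO-TAC replicate 2 lay among the WT-TAC values, and its unadjusted p was 0.356. Ctss, the cysteine protease cathepsin S, stood at 37.3, 21.3 and 22.2 CPM in WT-TAC and 26.2, 23.6 and 17.4 CPM in KO-TAC. The ranges overlapped, with WT-TAC replicate 1 highest (unadjusted p = 0.359). The 3 chains of C1q, which tags debris for uptake, were at 30.2 ± 9.31 and 27.9 ± 12.4 CPM for C1qa, 24.2 ± 3.32 and 20.6 ± 7.08 CPM for C1qb, and 20.9 ± 1.46 and 19.4 ± 5.05 CPM for C1qc.

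Trem2, a lipid-sensing receptor of phagocytes (chromosome 17 from 48346401 to 48354147), was lower in each KO-TAC library but was too low to be tested. It had 20, 17 and 10 counts in WT-TAC and 8, 4 and 3 counts in KO-TAC. On the CPM scale these were 3.15, 1.95 and 1.37 against 1.17, 0.486 and 0.443, and the groups did not overlap. Among genes with any count, 3.56% had all KO-TAC libraries below all WT-TAC libraries and 3.76% had them above. Without the filter on low counts the log2 fold change was −1.60 ± 1.06 (SE), with an unadjusted p of 0.133 in edgeR's test. A filter of 1 CPM in 3 libraries let in 12946 genes, Trem2 among them, against 12487 in the main fit. With that looser filter the SE was 0.85 and the unadjusted p 0.0803. Trem2 had 0.299, 0.386 and 0.345 counts per count of Tyrobp, its signalling partner, in WT-TAC and 0.205, 0.129 and 0.167 in KO-TAC. These ratios did not overlap, and they too are a description without a test.

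The Fc receptors, which bind antibody-coated targets, split evenly, with 2 higher and 2 lower and a median log2 fold change of −0.071. Fcer1g, the shared signalling chain (chromosome 1 from 171229572 to 171234365), stood at 10.9, 4.71 and 6.71 CPM in WT-TAC and 5.84, 5.95 and 1.77 CPM in KO-TAC. The ranges overlapped, with KO-TAC replicate 3 lowest. Its log2 fold change was −0.70 ± 0.51 (SE, unadjusted p = 0.196), and leaving out KO-TAC replicate 3 or 2 gave −0.32 or −0.95. Fcgr3, an activating receptor and the highest of the 4 by CPM, though not per length, stood at 6.13, 9.98 and 7.26 CPM in WT-TAC and 15.2, 11.4 and 5.62 CPM in KO-TAC. KO-TAC replicates 1 and 2 lay above and KO-TAC replicate 3 below the WT-TAC values (fold change 1.37, interval 0.758 to 2.49, unadjusted p = 0.270). Fcgr2b, the inhibitory receptor, was at 8.67 ± 2.14 and 7.55 ± 3.05 CPM (SD, n = 3). It aligns to 37.8% of the Fcgr3 transcript at 90% identity or more, with 96.5% in the best segment, so reads there are uncertain. Fcgr1, the high-affinity receptor, was at 3.24 ± 2.84 and 3.32 ± 2.4 CPM. Of the 3 genes with a seed match, Fcgr1 had a fold change of 1.04 (95% interval 0.301 to 3.6), Fcgr2b of 0.870 (0.481 to 1.57) and Fcer1g of 0.615 (0.285 to 1.33). Each interval spanned 1, and that of Fcgr1 took in a 2-fold change each way.

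All 4 pan-leukocyte genes had a fold change below 0, with a median log2 value of −0.60, and none passed the test. The class median was −0.20 without WT-TAC replicate 1. Their sums were 76.9, 46.0 and 41.2 CPM in WT-TAC and 49.97, 39.2 and 29.4 CPM in KO-TAC. The ranges overlapped, and WT-TAC replicate 1 was well above the others. Laptm5, a lysosomal membrane protein of blood cells (chromosome 4 from 130913125 to 130936141), stood at 35.2, 18.5 and 14.4 CPM in WT-TAC and 14.9, 14.8 and 12.6 CPM in KO-TAC. WT-TAC replicate 3 lay just inside the KO-TAC range. Its log2 fold change was −0.68 ± 0.33 (SE, unadjusted p = 0.0570), and leaving out WT-TAC replicate 1 or 3 gave −0.23 or −0.92. Tyrobp, the adaptor DAP12, stood at 10.5, 5.05 and 3.97 CPM in WT-TAC and 5.7, 3.77 and 2.66 CPM in KO-TAC. The groups overlapped, and the log2 fold change of −0.68 ± 0.51 (SE, unadjusted p = 0.203) was −0.17 without WT-TAC replicate 1. Ptprc, the phosphatase CD45 and the highest of the 4 by CPM, stood at 26.9, 16.8 and 17.3 CPM in WT-TAC and 25, 17.5 and 10.8 CPM in KO-TAC. These ranges overlapped (fold change 0.877, interval 0.539 to 1.43). Cd53, a leukocyte tetraspanin, was at 5.2 ± 0.828 and 3.65 ± 0.649 CPM (SD, n = 3).

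**Figure D4:**
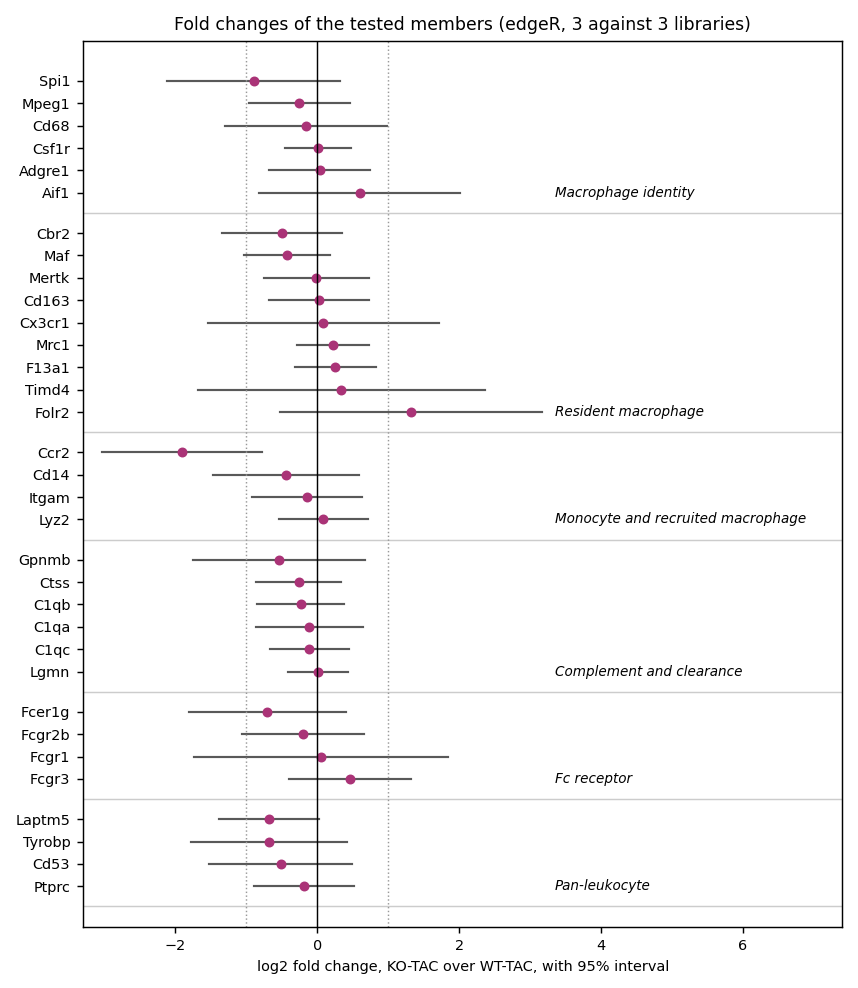
Log2 fold change of the 33 tested members with its 95% interval on the horizontal axis (edgeR, 3 against 3 libraries), grouped by class; dotted lines mark a 2-fold change each way. Ccr2 is the one interval that does not reach 0.

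Precision differed by member. The 95% interval of the fold change lay within 2-fold each way for 15 of the 33, among them Csf1r, Lgmn, Mrc1, F13a1, Lyz2 and the C1q chains, where 62% of all tested genes had such an interval. In all, 10 of the 34 had under 2 CPM in some library. Per kilobase of exon, the highest mean levels were Lyz2 at 71, Lgmn at 32, C1qa at 27.9 and C1qb at 20.6 CPM per kilobase, and the lowest Trem2 at 0.289, Gpnmb at 0.537 and Ccr2 at 0.646.

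**Figure D5:**
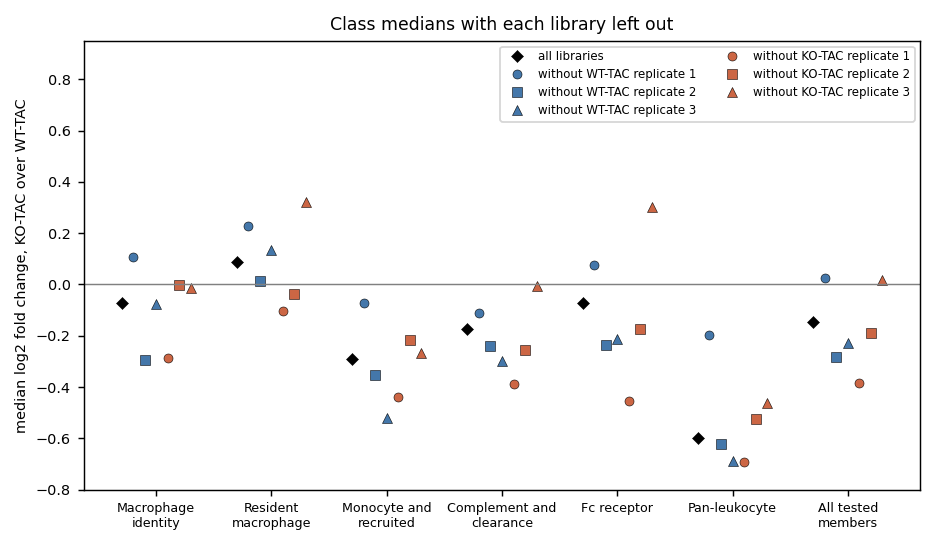
Median log2 fold change of the tested members in each class on the vertical axis, for all libraries (black) and with each library left out in turn. The median over all tested members moves between −0.38 without KO-TAC replicate 1 and 0.025 without WT-TAC replicate 1, and the pan-leukocyte median stays below 0 in each of the 6 fits.

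Further lists on macrophage biology gave 0 called genes in each. Growth factors and chemoattractants had 6 higher and 5 lower of 11 tested, with a median log2 fold change of 0.27. Csf1, the ligand of CSF1R, was at 65.1 ± 10.1 and 57.8 ± 7.04 CPM (SD, n = 3). Csf2rb, with the smallest p of that list, had 23, 11 and 17 counts in WT-TAC and 44, 34 and 31 in KO-TAC. It was higher without overlap, as were 4.26% of all tested genes, at a log2 fold change of 1.08 ± 0.57 (SE, unadjusted p = 0.0794 in edgeR's test). Csf1 and Csf2rb were named after their values were seen. Further resident genes had 5 higher and 6 lower, ITAM and SYK signalling, by which TYROBP and FCER1G act, 10 and 8, the phagocyte oxidase 2 and 3, and myeloid transcription factors 3 and 8, with medians of −0.0058, 0.025, −0.084 and −0.22. Among the further resident genes Msr1 had the smallest p, with 58, 34 and 30 counts in WT-TAC and 23, 25 and 11 in KO-TAC. It was lower without overlap, as were 3.72% of all tested genes, at a log2 fold change of −1.08 ± 0.56 (SE, unadjusted p = 0.0734 in edgeR's test). Msr1 too was named after its values were seen. Genes of phagolysosomes and lipid handling had 10 higher and 6 lower, with a median of 0.18. Ctsl, the protease cathepsin L, which cardiomyocytes and fibroblasts also make, stood at 103, 123 and 109 CPM in WT-TAC and 202, 199 and 125 CPM in KO-TAC. Every KO-TAC value was above the WT-TAC values, as in 4.26% of all tested genes. Ctsl had a log2 fold change of 0.65 ± 0.21 (SE), an unadjusted p of 0.00771 and an adjusted p of 0.999 in edgeR's test, so it was not called.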

How the data were processed

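Heart RNA of 6 samples, 3 WT-TAC and 3 KO-TAC, was analysed from a table of raw counts that the authors deposited, whole numbers per gene symbol without normalization. FastQC, Subread, HISAT2 2.1.0 and edgeR, and the builds GRCm38 and mm10, are listed in the submitters' processing notes without their role or order. Per the labels' protocols, libraries were made with a plain or a stranded TruSeq kit, and which one is not given, so antisense genes cannot be told apart. The column of KO-TAC replicate 3 was assigned by its library index.

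The members and lists were chosen with earlier results of these data known. Counts were fitted with edgeR 4.0.16 in R 4.3.3: filterByExpr by genotype with a minimum count of 10, TMM scaling and a robust quasi-likelihood fit without covariates. The Benjamini-Hochberg adjusted p was taken over 12487 tested genes, with a threshold of 0.05, and the scripts were tested on simulated data. Positive log2 values mean higher in KO-TAC. Standard errors come from the F statistic, and 95% intervals use the t distribution of the fit. Log2 CPM used a prior count of 2, and the common biological coefficient of variation was 0.286.

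Every member is named. Values per library are given, in each class, for the 2 tested members with the smallest p and the member with the highest mean CPM, and for Trem2 as counts. Of the other lists, at most 2 genes with an unadjusted p under 0.05 are named by that rule. As alternatives, the scaling (RLE, upper-quartile, none), the filter (none, or 1 CPM in 3 libraries) and the tool (DESeq2 1.42.0, or voom of limma 3.58.1, also with quality weights) were changed, the replicate number was added as a block, and each replicate was left out. Gene positions come from GENCODE M21, and copies were pairs of transcripts with at least 100 bases aligned at 90% identity.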

Additional observations from a re-analysis of the deposited data

How the results depend on the processing

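No member was called in any of the 16 fits, that is, with edgeR under each scaling and filter, DESeq2, limma-voom with and without weights, the block, and each replicate left out. Over all genes, 3 were called in edgeR, 21 without the filter on low counts, 16 in DESeq2, 0 in limma-voom (181 higher and 195 lower at an unadjusted p under 0.05), 6 with the replicate number as a block and 0 to 7 with 1 replicate left out. The cause of these differences was not tested. The labels do not say that the replicate numbers pair the samples, and the correlations between libraries did not settle it. Same-numbered libraries correlated at 0.135, 0.0111 and 0.257 over genes, and the last was the highest of all pairs across the genotypes. Pairs with unlike numbers ran from −0.223 to 0.146, and WT-TAC replicate 1 correlated best with KO-TAC replicate 2 (0.146). With the block the members' median log2 fold change was −0.14, 12 of 33 were higher, and Ccr2 had an adjusted p of 0.682. The members' median was −0.16 to −0.0017 under the other alternatives and −0.38 to 0.025 with a replicate left out.

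Members near 0 changed direction. With a replicate left out, the log2 fold changes that crossed 0 were those of Adgre1 (−0.19 to 0.39), C1qa (−0.35 to 0.21), C1qc (−0.34 to 0.021), Cd163 (−0.27 to 0.40), Cd68 (−0.46 to 0.070), Csf1r (−0.17 to 0.19), Ctss (−0.41 to 0.035), Cx3cr1 (−0.42 to 0.75), F13a1 (−0.11 to 0.43), Fcgr1 (−0.43 to 0.96), Fcgr2b (−0.53 to 0.054), Itgam (−0.40 to 0.34), Lgmn (−0.11 to 0.10), Lyz2 (−0.42 to 0.31), Mertk (−0.26 to 0.47), Mpeg1 (−0.47 to 0.15), Mrc1 (−0.10 to 0.39), Ptprc (−0.51 to 0.067) and Timd4 (−0.46 to 0.87). Without scaling Csf1r was −0.0071, Cd163 −0.0012 and Lgmn −0.0041. In limma-voom Csf1r was −0.020, Mertk 0.12 and Lyz2 −0.033, and with quality weights Cd68 was 0.12, Mpeg1 0.059, Mertk 0.30, Lyz2 −0.031, Itgam 0.15, C1qa 0.077 and Lgmn −0.021. With the block Csf1r was −0.020, Mertk 0.074 and Lyz2 −0.030. With 3 libraries a group, 18 of the 33 intervals reach past a 2-fold change, which limits what can be said of those members.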
